A study of Homo sapiens with 6 samples.

Results

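The 9 genes described here are those through which cells load peptides onto MHC class I molecules and show them at the surface. They are HLA-B, HLA-C, HLA-E, B2M, TAP1, TAP2, TAPBP, PSMB8 and PSMB9. The genes were taken by name from an RNA-seq matrix of 14930 genes, in which all 9 were present. All 9 also passed the filter on low values, which kept 9671 genes for testing.

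In the class I pathway, the proteasome cuts cytosolic proteins into peptides, and the inducible subunits encoded by PSMB8 and PSMB9 replace constitutive ones and change where it cuts. The TAP1 and TAP2 proteins form the transporter that carries peptides into the endoplasmic reticulum, and tapasin, encoded by TAPBP, bridges that transporter to empty class I molecules. Each class I molecule pairs a heavy chain, such as HLA-B, HLA-C or HLA-E, with β2-microglobulin from B2M. HLA-B and HLA-C present peptides to CD8+ T cells and bind receptors of natural killer cells, and HLA-E shows leader peptides of other class I chains to such cells.

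The samples were of OVCAR8, an established human cell line of high-grade serous ovarian cancer, in 3 groups of 2 samples. DZNep is 3-deazaneplanocin A, which inhibits S-adenosylhomocysteine hydrolase and thereby many methyltransferases, and it was given for 72 hours (5 μM in the methods, 5 mM in the labels). In shEZH2 cells, 1 hairpin line (OVCAR8-shEZH2#2) had knockdown of EZH2, the histone H3 lysine 27 methyltransferase, switched on by doxycycline (1 μg/mL in the methods, 1 mg/mL in the labels). The time was 72 hours for all 6 samples, controls included. Controls were OVCAR8 cells, for which the treatment text names the solvent DMSO, and the labels do not say whether they carried a hairpin or received doxycycline. No label ties the 2 samples of a group to separate cultures, so the p-values measure only the spread between these samples, which may be technical. In bulk RNA, fewer cells with a transcript and less transcript per cell cannot be told apart.

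The deposited values of each sample added up to between 999956 and 1000068 and were rounded to whole numbers, so they are relative levels without read depth, and they are set side by side here only within a gene or as a ratio followed across samples. The SD over tested genes of the log2 difference between the samples of a group was 0.43 in control, 0.45 in DZNep and 0.14 in shEZH2, and both shEZH2 samples held the same value in 14.1% of tested genes, against 6.24% in control and 4.82% in DZNep. Whether the shEZH2 pair agreed within sampling noise could not be tested without read counts. In control and in DZNep, the difference between the samples followed transcript GC content (Spearman's rho across 9027 genes 0.77 and 0.82, genes not being independent replicates), whereas in shEZH2 rho was -0.04. Leukocyte markers, summed over the 3 of 12 in the matrix, lay at 70 to 74 in control, 18 to 21 in DZNep and 32 to 35 in shEZH2, nearly all of it CD68, and the lineage genes PTPRC, CD3E and MS4A1 were absent. Of the epithelial markers, KRT7 and KRT8 were present in each sample, while EPCAM, WT1 and CDH1 did not pass the filter and MUC16 was absent.

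EZH2, the gene targeted in the knockdown, was at 36 and 42 in the control samples, 26 in each DZNep sample and 18 in each shEZH2 sample. Both treated groups lay below control in every sample. The log2 fold change was -1.12 (SE 0.18, adjusted p = 0.016, limma with Benjamini-Hochberg adjustment over all tested genes, as for each adjusted p that follows) in shEZH2 and -0.63 (SE 0.18, adjusted p = 0.0255) in DZNep. The DZNep call was lost when control replicate 2, DZNep replicate 2 or either shEZH2 sample was left out, and the shEZH2 call when either shEZH2 sample was left out (adjusted p up to 0.0915 and 0.206).

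The 9 genes are spread over a pair of chromosomes. B2M lies on chromosome 15 (chr15:44711358-44718851, plus strand) and the other 8 on the short arm of chromosome 6, within 2.82 Mb of the MHC. Coordinates are those of GENCODE release 44 on GRCh38. HLA-E (chr6:30489509-30494194, plus strand), HLA-C (chr6:31268749-31272130, minus strand) and HLA-B (chr6:31353872-31367067, minus strand) come first. TAP2 (chr6:32821833-32838739, minus strand), PSMB8 (chr6:32840717-32844679, minus strand), TAP1 (chr6:32845209-32853816, minus strand) and PSMB9 (chr6:32844136-32859851, plus strand) follow within 38 kb, and TAPBP (chr6:33299694-33314284, minus strand) lies beyond them. The annotated PSMB9 locus runs antisense to PSMB8 and TAP1, and the strand setting of the counting is not given in the sources used here. The transcript of TAP2 shares 35.3% of its 50-base words with other genes, mostly an overlapping read-through locus (ENSG00000250264), that of TAPBP shares 7.09%, and those of HLA-B, HLA-C and HLA-E share 2.56%, 6.76% and 6.16%, so these values depend on how shared reads were divided.

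Promoters of class I genes are known for sites of NF-κB, of interferon regulatory factors and of the complex that carries NLRC5. RefSeq windows on GRCh38.p14 were found for 8 of the 9 genes, HLA-E being the exception. The 200 bases before the start site are shown for HLA-B and HLA-C, which share much of their letters but had unequal fold changes, for TAP1 and TAP2, which also had unequal ones, and for B2M and TAPBP. Each run is 5′ to 3′ on the strand of the gene. Capitals mark matches, on either strand, to the interferon-stimulated response element (ISRE, a TTTC followed after 2 bases by another TTTC), the kappa B motif, the CCAAT box, the core TGACG of a cAMP response element and the interferon-gamma activated site (GAS, TTCNNNGAA); matches to ISRE can overlap one another and are counted separately.
HLA-B (chr6:31357180-31357379, minus strand): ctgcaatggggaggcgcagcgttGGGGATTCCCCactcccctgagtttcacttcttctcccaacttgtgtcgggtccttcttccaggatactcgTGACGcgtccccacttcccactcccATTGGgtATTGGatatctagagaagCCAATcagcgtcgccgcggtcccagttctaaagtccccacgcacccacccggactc
HLA-C (chr6:31272093-31272292, minus strand): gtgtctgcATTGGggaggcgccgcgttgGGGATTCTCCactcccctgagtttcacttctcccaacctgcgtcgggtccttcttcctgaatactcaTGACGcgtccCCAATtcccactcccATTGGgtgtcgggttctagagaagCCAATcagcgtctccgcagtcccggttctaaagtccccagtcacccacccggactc
B2M (chr15:44711317-44711516, plus strand): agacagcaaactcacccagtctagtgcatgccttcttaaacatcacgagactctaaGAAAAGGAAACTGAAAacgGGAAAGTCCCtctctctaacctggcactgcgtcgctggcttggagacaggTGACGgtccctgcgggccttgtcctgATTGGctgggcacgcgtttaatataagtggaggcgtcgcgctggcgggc
TAP1 (chr6:32853705-32853904, minus strand): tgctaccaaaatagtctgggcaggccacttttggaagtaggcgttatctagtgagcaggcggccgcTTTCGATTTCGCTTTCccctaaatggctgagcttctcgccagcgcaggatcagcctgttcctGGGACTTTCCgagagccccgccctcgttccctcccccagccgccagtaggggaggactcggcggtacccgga
TAP2 (chr6:32838740-32838939, minus strand): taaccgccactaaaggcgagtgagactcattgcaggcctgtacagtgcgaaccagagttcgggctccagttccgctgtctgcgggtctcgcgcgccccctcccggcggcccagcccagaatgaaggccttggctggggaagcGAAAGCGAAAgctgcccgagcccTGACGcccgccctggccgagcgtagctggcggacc
TAPBP (chr6:33314079-33314278, minus strand): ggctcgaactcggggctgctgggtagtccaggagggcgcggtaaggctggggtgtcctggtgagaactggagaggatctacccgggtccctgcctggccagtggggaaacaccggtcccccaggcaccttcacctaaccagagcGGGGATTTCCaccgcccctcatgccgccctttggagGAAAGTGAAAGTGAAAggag

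Within 250 bases before a start site, a kappa B match was found for HLA-B, HLA-C, B2M, TAP1 and TAPBP, and 5.21% of 35116 windows of that length held one. An ISRE match was found for B2M, TAP1, TAP2 and TAPBP, against 3.02% of all windows. HLA-B and HLA-C had neither an ISRE nor a GAS match, the latter being found in 6.57% of all windows, and both had a TGACG (21.2% of windows) beside several CCAAT (32.0%). PSMB9 had a CCAAT and a TGACG, and the 2 windows of PSMB8 held a GAS match and a TGACG. The start sites of PSMB9 (chr6:32854192) and TAP1 (chr6:32853704) point away from each other. The ISRE and kappa B matches of TAP1 lie between these sites, outside the PSMB9 window. TAP1 has a further window, at another start site, that held only a GAS match. These matches are letters in a window and not measured binding. Only the exact letters of each pattern were counted. A stretch that departs from them, such as tttcacttct in the runs of both HLA-B and HLA-C, was not, so a missing match does not show a missing site.

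**Figure D1:**
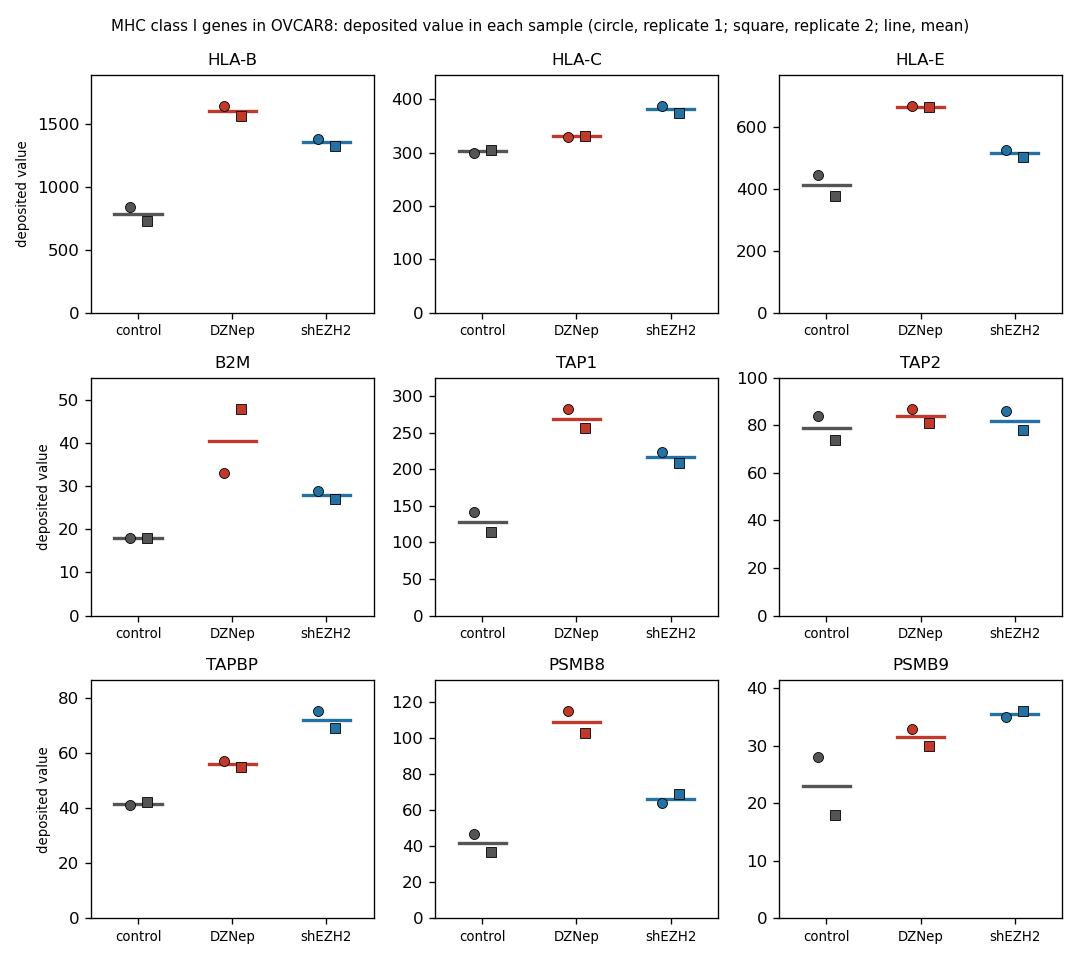
Deposited value (relative units, scaled to a common total) of the 9 MHC class I genes in each sample, with 2 samples of control, DZNep and shEZH2 and a line at each group's mean; axes start at 0. HLA-B, TAP1 and PSMB8 were highest in DZNep, TAPBP was highest in shEZH2, and the TAP2 samples of the 3 groups overlapped.

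DZNep was compared with control to ask how class I transcripts stood after an inhibitor with many methyltransferase targets. HLA-B, HLA-E, B2M, TAP1 and PSMB8 rose, between 1.54-fold and 2.45-fold, so that 5 of the 9 genes passed the test as higher and 0 as lower. Of all tested genes, 22.4% passed as higher and 20.4% as lower. The median log2 fold change of the 9 genes was 0.63, beside 0.02 over all tested genes. The fold change was above 0 for 9 of the 9, as for 4918 of the 9671 tested genes, but that of TAP2 turned below 0 with median-ratio scaling, and those of TAP2 and HLA-C after the GC correction described later or without control replicate 2 or DZNep replicate 1. By the call rule of the methods (unadjusted P under 0.05 and a change of more than 1 on the log2 scale), 3 of the 9 (B2M, TAP1 and PSMB8) were higher and 0 lower, against 10.5% and 11.8% of tested genes.

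Among the heavy chains, HLA-B was at 842 and 730 in control and at 1644 and 1562 in DZNep. Each DZNep sample lay above each control sample, with a 1.94-fold higher level (log2 fold change 0.96, SE 0.19, adjusted p = 0.00599). HLA-E was at 445 and 379 in control and at 669 and 664 in DZNep, groups that did not overlap. Its rise was smaller, at 1.54-fold (log2 fold change 0.63, SE 0.19, adjusted p = 0.0291), and the call was lost without control replicate 2 (adjusted p = 0.152), without DZNep replicate 1 (0.119) or without either shEZH2 sample (0.0772 and 0.077). HLA-C was at 300 and 305 in control and at 330 and 331 in DZNep. These values lay slightly above control as deposited, but the groups overlapped after scaling, and the log2 fold change of 0.06 (95% confidence interval -0.32 to 0.43, adjusted p = 0.8) did not pass the test.

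B2M, which encodes the light chain shared by all class I molecules, was at 18 and 18 in control and at 33 and 48 in DZNep. The DZNep samples differed from each other by more than the control samples did, yet both lay above them, and the level was 2.05-fold higher (log2 fold change 1.03, SE 0.19, adjusted p = 0.00382). At values this low the rounding alone leaves the log2 ratio of the group means between 1.02 and 1.14.

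The transporter genes had unequal fold changes. TAP1 was at 141 and 114 in control and at 283 and 256 in DZNep, a rise of 2.01-fold with no overlap (log2 fold change 1.01, SE 0.21, adjusted p = 0.00697). TAP2 was at 84 and 74 in control and at 87 and 81 in DZNep. Its groups overlapped, and the log2 fold change was 0.02 (95% confidence interval -0.44 to 0.47, adjusted p = 0.947). TAPBP, for the tapasin bridge, was at 41 and 42 in control and at 57 and 55 in DZNep, and although the groups did not overlap, the log2 fold change of 0.35 (SE 0.18) had an adjusted p of 0.145.

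Of the inducible proteasome subunits, PSMB8 was at 47 and 37 in control and at 115 and 103 in DZNep, the highest fold of the 9 genes at 2.45 (log2 fold change 1.29, SE 0.23, adjusted p = 0.00325). PSMB9 was at 28 and 18 in control and at 33 and 30 in DZNep. After scaling its groups overlapped, and the log2 fold change of 0.40 (SE 0.27) had an adjusted p of 0.272.

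Groups that did not overlap, with DZNep above control, were seen for 6 of the 9 genes, and with DZNep below it for 0, against 34.8% and 30.8% of tested genes. The GC content of the 9 transcripts had a median of 55.06%, against 48.45% over tested genes, and B2M was the one member below the latter at 39.13%. Across 9027 genes, the log2 fold changes in DZNep rose with GC content (Spearman's rho 0.25). After a correction of each sample for GC content and transcript length, the same 5 genes passed. Of 9027 genes, 2706 then passed as higher and 2707 as lower. The correction changed the log2 fold changes of all genes by a median of -0.10, while the median fold change over all genes stayed at 0.02. HLA-E then had a log2 fold change of 0.27 (adjusted p = 0.0132), HLA-B of 0.64 (0.000472), TAP1 of 0.70 (0.000147), PSMB8 of 0.93 (7.75e-05) and B2M of 1.27 (8.82e-05).

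**Figure D2:**
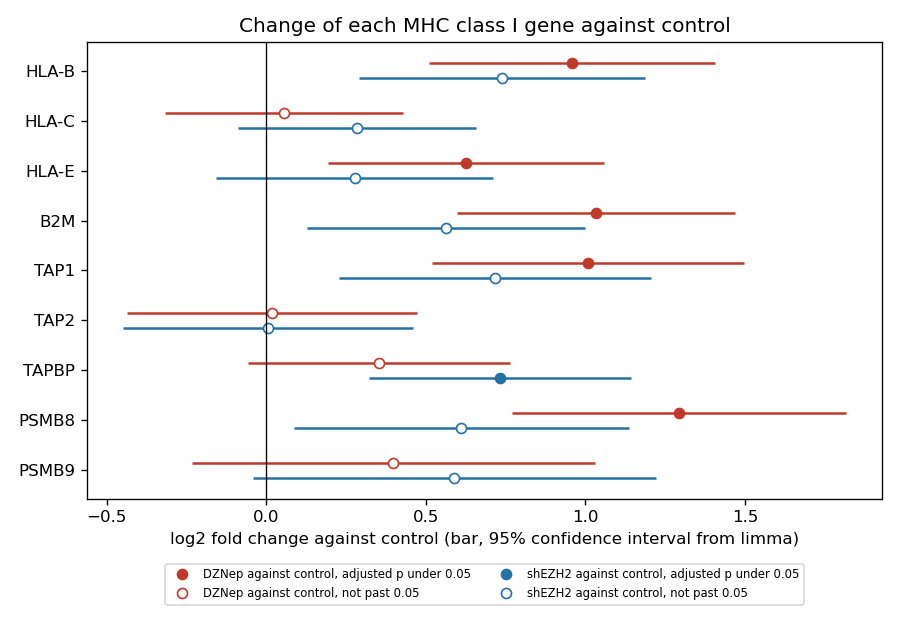
Log2 fold change against control of each of the 9 genes in DZNep (red) and shEZH2 (blue), with bars for the 95% confidence interval from limma; filled points had an adjusted p under 0.05. In DZNep 5 genes are filled, in shEZH2 TAPBP alone, and the intervals of TAP2 span 0 in both.

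shEZH2 was compared with control to ask how the same transcripts stood after knockdown of EZH2. TAPBP rose 1.66-fold and was the 1 gene of 9 that passed the test as higher, with 0 lower, while 3.91% of tested genes passed as higher and 4.53% as lower. The shEZH2 samples lay above both control samples for 8 of the 9 genes and below them for 0, against 33.5% and 31.6% of tested genes. The median log2 fold change of the 9 was 0.59, beside -0.01 over all tested genes. Across 9027 genes, the log2 fold changes in shEZH2 rose with transcript GC content (Spearman's rho 0.36). All members but B2M lay above the median GC content of tested genes. Of the genes called, 46.3% were higher, and 66% with the values used as deposited. By the thresholds of the methods, 0 of the 9 genes were called, against 2.27% of tested genes higher and 3.03% lower.

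TAPBP was at 41 and 42 in control and at 75 and 69 in shEZH2 (log2 fold change 0.73, SE 0.18, adjusted p = 0.046). HLA-B was at 842 and 730 in control and at 1382 and 1324 in shEZH2. The groups did not overlap, and the log2 fold change of 0.74 (SE 0.19) was as large as that of TAPBP but had an adjusted p of 0.0555. TAP1 was at 224 and 209 in shEZH2, above its control values of 141 and 114, with a log2 fold change of 0.72 (SE 0.21, adjusted p = 0.0717).

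PSMB8, at 64 and 69 in shEZH2, had a log2 fold change of 0.61 (SE 0.23, adjusted p = 0.127), and PSMB9, at 35 and 36, one of 0.59 (SE 0.27, adjusted p = 0.203). For both subunits each shEZH2 sample lay above each control sample. B2M was at 29 and 27 in shEZH2, against 18 and 18 in control (log2 fold change 0.56, SE 0.19, adjusted p = 0.0999).

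HLA-C, at 388 and 375 in shEZH2, and HLA-E, at 525 and 505, had log2 fold changes of 0.28 each (adjusted p = 0.286 and 0.37). They were above control in both samples by less than HLA-B was. Over the other settings tried, their log2 fold changes went as low as 0.03 for HLA-C and 0.05 for HLA-E. TAP2 was at 86 and 78 in shEZH2 and overlapped control (log2 fold change 0.01, 95% confidence interval -0.45 to 0.46, adjusted p = 0.988).

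The count in shEZH2 rested on single samples and on the spread lent by the other groups. It was 4 without control replicate 1, namely HLA-B, TAP1, PSMB8 and PSMB9 but not TAPBP (adjusted p = 0.0506), and 3 without either DZNep sample, namely HLA-B, TAP1 and TAPBP. It was 0 without control replicate 2 and 0 without either shEZH2 sample, and it was 0 with both shEZH2 samples averaged and counted as 1. After correction for GC content and length it was 5, namely HLA-B (log2 fold change 0.48, adjusted p = 0.00559), B2M (0.74, 0.00471), TAP1 (0.49, 0.00302), TAPBP (0.54, 0.00527) and PSMB8 (0.37, 0.0193). Of 9027 genes, 1357 then passed as higher and 1651 as lower. Across these fits, the count exceeded that of the main fit where more of all genes passed as higher, and was lower where fewer did. A further fit, limma without the trend, departed from this, with a count of 0 although more of all genes passed as higher than in the main fit. Whether the changes in the count are specific to the class I genes was not tested.

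The 2 treated groups were also compared directly. None of the 9 genes passed the test as different in limma (0 higher and 0 lower), where 4.88% of tested genes passed as higher in shEZH2 and 4.42% as lower, and 2 of the 9, B2M and PSMB8, were lower at an unadjusted p under 0.05, as 14% of tested genes were, with 13.4% higher. By the rule of the methods the count was also 0, against 3.42% of tested genes higher and 2.1% lower. The shEZH2 samples lay below both DZNep samples for HLA-B, HLA-E, B2M, TAP1 and PSMB8, and above both for HLA-C and TAPBP, while TAP2 and PSMB9 overlapped. Of all tested genes, 31.3% lay below and 29.5% above in this way. PSMB8 had the difference farthest from 0, -0.68 on the log2 scale (95% confidence interval -1.20 to -0.16, adjusted p = 0.0973), followed by B2M with -0.47 (-0.91 to -0.04, adjusted p = 0.153). TAPBP had the highest difference in the other direction, 0.38 (-0.03 to 0.79, adjusted p = 0.216). PSMB8 passed as lower without either control sample, and B2M, PSMB8 and TAPBP passed after correction for GC content and length (adjusted p = 0.016, 0.00331 and 0.00947). With that correction, 1675 of 9027 genes passed as higher and 1550 as lower. In the main fit, the interval was -0.78 to 0.08 for HLA-E, -0.14 to 0.60 for HLA-C and -0.47 to 0.44 for TAP2, so a missed threshold does not show equal levels.

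Ratios within a sample do not depend on the scaling between samples. They were not corrected for GC content, which can differ within a pair, as between TAP1 (57.39%) and TAP2 (48.87%). HLA-B over HLA-C was 2.81 and 2.39 in control, 4.98 and 4.72 with DZNep and 3.56 and 3.53 with shEZH2. The 3 groups were thus separate, with DZNep above control by 0.90 on the log2 scale and shEZH2 by 0.45. HLA-E over HLA-C was 1.48 and 1.24 in control, 2.03 and 2.01 with DZNep and 1.35 and 1.35 with shEZH2, where it overlapped control.

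TAP1 over TAP2 was 1.68 and 1.54 in control, 3.25 and 3.16 with DZNep and 2.60 and 2.68 with shEZH2, again in separate groups. The log2 differences from control were 0.99 in DZNep and 0.71 in shEZH2. HLA-B over B2M was 46.8 and 40.6 in control and 49.8 and 32.5 in DZNep, which overlapped, and it was 47.7 and 49.0 in shEZH2, above both control samples (log2 difference 0.18).

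PSMB8 replaces the constitutive subunit PSMB5 in the proteasome, and PSMB9 replaces PSMB6. PSMB8 over PSMB5 was 0.160 and 0.157 in control, 0.292 and 0.295 with DZNep and 0.215 and 0.240 with shEZH2. PSMB9 over PSMB6 was 0.134 and 0.108 in control, 0.156 and 0.160 with DZNep and 0.207 and 0.208 with shEZH2. The order of the treated groups was thus opposite for these ratios, with PSMB8 over PSMB5 highest in DZNep and PSMB9 over PSMB6 highest in shEZH2. PSMB9 itself overlapped between shEZH2 and DZNep (log2 difference 0.19, adjusted p = 0.708, limma). So did PSMB6 (-0.20, adjusted p = 0.612), and both enter the ratio. PSMB10, the remaining inducible subunit, replaces PSMB7, and their ratio was 0.0485 and 0.0405 in control, 0.0826 and 0.0673 with DZNep and 0.0691 and 0.0651 with shEZH2. Both treated groups lay above control, by 0.72 and 0.57 on the log2 scale, and overlapped each other. With 2 samples against 2, the exact permutation test, two-sided, cannot go below p = 0.333, which each of these separate pairs of groups reached (0.411 after Benjamini-Hochberg adjustment over 21 comparisons of 7 ratios).

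**Figure D3:**
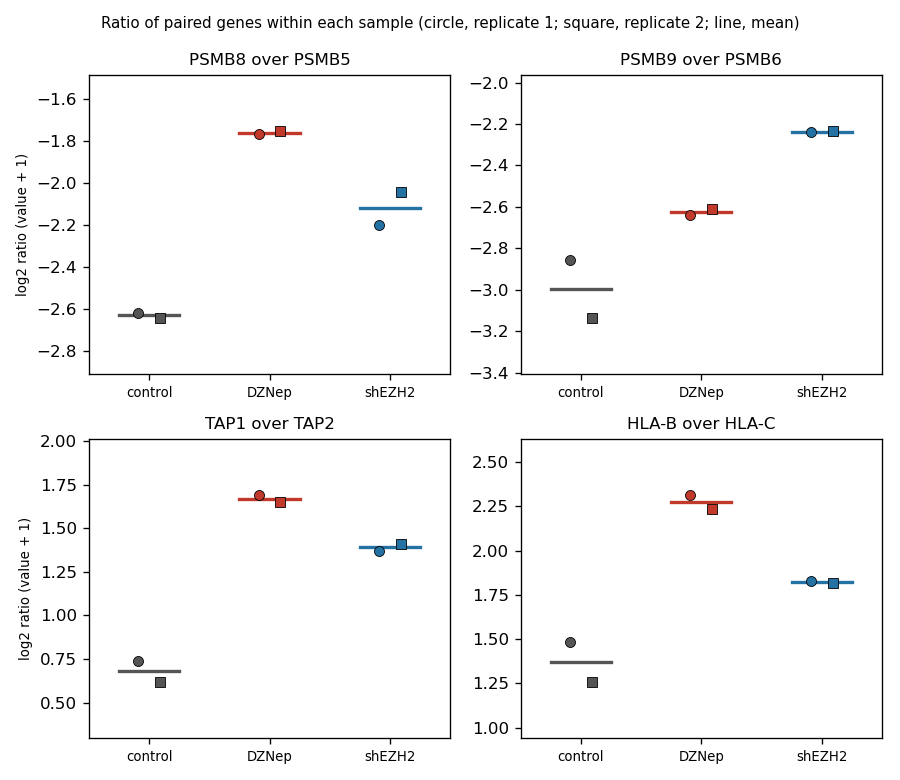
Log2 ratio of the values of paired genes (each value plus 1) within each sample of control, DZNep and shEZH2, with a line at each group's mean; the vertical axes do not start at 0. PSMB8 over PSMB5, TAP1 over TAP2 and HLA-B over HLA-C were highest in DZNep, and PSMB9 over PSMB6 was highest in shEZH2.

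The 9 genes did not share 1 profile over the 6 samples. Pearson's r of each gene's scaled log2 values with the mean of the 9, which includes the gene itself, was 0.99 for HLA-B, 0.996 for TAP1, 0.94 for HLA-E and 0.94 for PSMB8, and lower for PSMB9 (0.85), B2M (0.84), TAPBP (0.74), HLA-C (0.58) and TAP2 (0.45). Among 3316 other genes with a mean scaled value of at least 50, the closest to that mean over the 6 samples were KCTD2 (r = 0.999), RRP12 (0.997), ARFGAP1 (0.997), MYH9 (0.996) and LAMTOR5 (0.995). These r values describe 6 samples in 3 groups that share libraries and the GC-linked spread, and none of the 5 is a class I pathway gene.

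Other genes of the pathway were read from lists. Of 7 other listed heavy chains of class I or class I-like molecules, 2 were tested, and 1 of them, HLA-F, rose in DZNep, with 0 called in shEZH2. HLA-F, a non-classical chain, was at 38 and 37 in control and at 56 and 57 in DZNep (log2 fold change 0.51, adjusted p = 0.0493).

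Of the third inducible proteasome subunit and the PA28 activator with the assembly factor POMP, 4 genes, 1 rose and 1 fell in DZNep and 0 were called in shEZH2. PSMB10, the inducible subunit, was at 21 and 16 in control and at 39 and 30 in DZNep (log2 fold change 0.80, adjusted p = 0.0426). PSME1, a subunit of PA28, which opens the proteasome, was at 204 and 170 in control and at 99 and 101 in DZNep (log2 fold change -0.96, adjusted p = 0.00539), and so moved against PSMB8. Of the 14 constitutive core subunits, PSMB1 fell in DZNep (log2 fold change -0.48, adjusted p = 0.0342), 13 were not called, and 0 were called in shEZH2. The medians of these 14 were -0.08 and -0.16.

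Among 8 tested genes of folding, loading and peptide trimming, CALR rose in DZNep and UGGT1, LNPEP and CANX fell. CALR encodes calreticulin, the chaperone of the loading complex, and was at 321 and 231 in control and at 425 and 516 in DZNep (log2 fold change 0.71, adjusted p = 0.0304). UGGT1, whose product tags incompletely folded glycoproteins for another round of folding, was at 131 and 161 in control, 52 and 73 with DZNep and 95 and 91 with shEZH2. It fell in both treated groups (log2 fold change -1.29, adjusted p = 0.000825, and -0.69, adjusted p = 0.0448) and was the 1 gene of the list called in shEZH2. Among 7 genes of trafficking and ubiquitin ligases, HM13 (log2 fold change 0.84, adjusted p = 0.0107), the signal peptide peptidase that releases leader peptides, and SEC24C (0.75, 0.0175) rose in DZNep, SEC24D (-0.97, 0.00682) fell, and 0 were called in shEZH2.

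**Figure D4:**
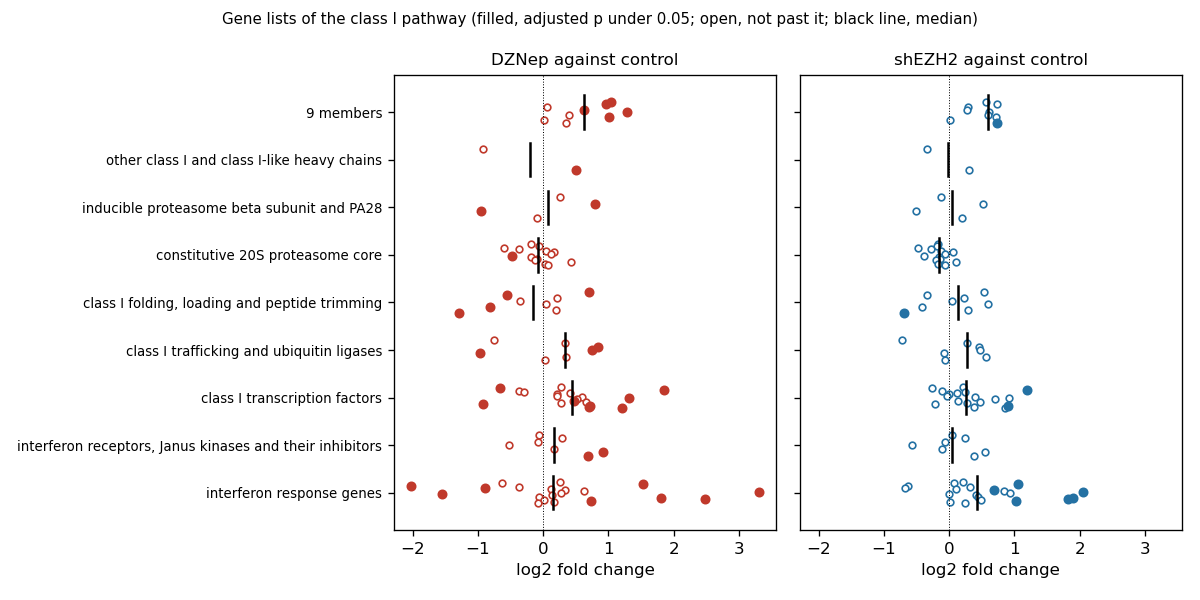
Log2 fold change against control of the tested genes of each list (points; filled, adjusted p under 0.05; black line, median) in DZNep and in shEZH2. The 9 genes have medians of 0.63 and 0.59, the 14 constitutive proteasome subunits of -0.08 and -0.16, and the transcription factors and interferon response genes spread on both sides of 0.

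Of 18 tested transcription factors of class I genes, 6 rose and 2 fell in DZNep, and 2 rose and 0 fell in shEZH2, with medians of 0.44 and 0.26. These are 33.3% and 11.1% in DZNep, beside 22.4% and 20.4% of all tested genes, and 11.1% higher in shEZH2, beside 3.91%. IRF1, an interferon regulatory factor, was at 38 and 29 in control, 140 and 118 with DZNep and 81 and 79 with shEZH2. The 3 groups were separate, and IRF1 rose by 1.85 (SE 0.24, adjusted p = 0.000862) and by 1.20 (SE 0.24, adjusted p = 0.0262) on the log2 scale. NLRC5, the class I transactivator, was at 7 and 5 in control, 18 and 16 with DZNep and 13 and 12 with shEZH2. It rose in DZNep (log2 fold change 1.31, SE 0.25, adjusted p = 0.00474), and in shEZH2 the log2 fold change was 0.92 (SE 0.25, adjusted p = 0.0602), at values so low that rounding is a sizeable share of each. Both control values are under the filter minimum of 10, so the gene was tested only because it was higher elsewhere, and its difference is a description.

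USF2, a factor that binds E-box sequences, was at 19 and 18 in control and at 51 and 42 in DZNep (log2 fold change 1.21, SE 0.22, adjusted p = 0.00414). STAT2, a signal transducer of type I interferon receptors, was at 39 and 42 in control, 23 and 21 with DZNep and 37 and 35 with shEZH2. It fell in DZNep (log2 fold change -0.92, SE 0.19, adjusted p = 0.00675), where both samples lay below both control samples. The remaining calls, named after their values were seen, were RFX5, USF1 and STAT3 as higher in DZNep, CREB1 as lower, and STAT3 as higher in shEZH2. Of interferon receptors, Janus kinases and their inhibitors, 2 of 7 tested genes rose in DZNep, the inhibitor SOCS3 (log2 fold change 0.91, adjusted p = 0.014) and the kinase TYK2 (0.69, 0.0453), and 0 were called in shEZH2.

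**Figure D5:**
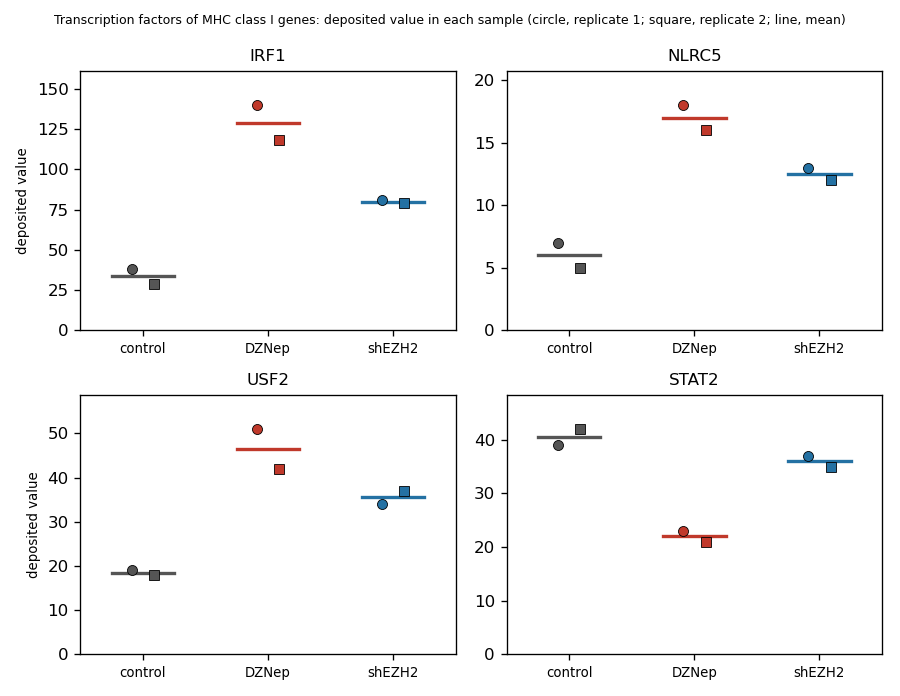
Deposited value (relative units) in each sample of the 4 called class I transcription factors with the largest absolute log2 fold change against control. Each panel has 2 samples of control, DZNep and shEZH2 and a line at each group's mean, and axes start at 0. IRF1, NLRC5 and USF2 were lowest in control, while STAT2 was lowest in DZNep.

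Of 20 tested interferon response genes, 5 rose and 3 fell in DZNep, and 6 rose and 0 fell in shEZH2, with medians of 0.14 and 0.43. The DZNep shares, 25% and 15%, were near those of all tested genes (22.4% and 20.4%), and in shEZH2 30% were higher, beside 3.91%. The filter bears on these counts, since GBP1, IFIT2, IRF7 and OAS3, which are 4 of the 5 and 4 of the 6 higher genes, were under its minimum of 10 in both control samples, and GBP2 and IFITM1, 2 of the 3 lower genes, were under it in both DZNep samples. These 6 genes were tested only because they were higher elsewhere, so their differences are a description. IFIT2, an inhibitor of viral translation, was at 2 and 4 in control, 32 and 47 with DZNep and 15 and 16 with shEZH2 (log2 fold change 3.31, adjusted p = 0.000107, and 2.06, adjusted p = 0.00793). ISG15, a ubiquitin-like modifier, was at 72 and 65 in control, 437 and 376 with DZNep and 252 and 252 with shEZH2. It rose by 2.48 (adjusted p = 0.000149) and 1.82 (adjusted p = 0.00582) on the log2 scale. IRF7, a regulator of type I interferon genes, was at 5 and 5 in control, 22 and 20 with DZNep and 22 and 22 with shEZH2 (log2 fold change 1.81, adjusted p = 0.000537, and 1.90, adjusted p = 0.00565). GBP2, an interferon-induced GTPase, went the other way, from 12 and 13 in control to 2 and 3 in DZNep (log2 fold change -2.03, adjusted p = 0.000278), with 8 and 8 in shEZH2 (-0.63, adjusted p = 0.0828).

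Outside class I, HLA-DPB1 was the 1 gene of 5 tested for class II presentation that rose in DZNep (9 and 8 in control, 16 and 14 in DZNep, log2 fold change 0.69, adjusted p = 0.042), although both its control values are under the filter minimum, HLA-DRA was absent from the matrix and CD74 did not pass the filter. Among 5 tested ligands of natural killer cells and checkpoints, PVR (log2 fold change 0.91, adjusted p = 0.00674), a ligand of the receptors DNAM-1 and TIGIT, and CD276 (0.80, 0.0175) rose in DZNep, and 0 were called in shEZH2. EZH2 was the 1 gene of 6 of the Polycomb repressive complex that was called, in both treated groups, as lower. In DZNep, EZH1 (log2 fold change -0.63, adjusted p = 0.0508) and RBBP7 (-0.51, 0.0533) came close to the threshold. Both lay below control without overlap and were named after their values were seen. The ovarian carcinoma markers KRT8 and KRT18 rose in DZNep (log2 fold change 1.77 and 1.66, adjusted p = 0.000851 and 0.00126), MSLN (-2.06, 0.000483) and PAX8 (-0.68, 0.0277) fell, and 0 of 5 were called in shEZH2. CD68 (log2 fold change -2.04 and -1.19, adjusted p = 0.000426 and 0.0214) was lower in both treated groups. Whether any of these markers moved with the class I genes for a shared reason was not tested.

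The 8 genes on chromosome 6 were also set beside their neighbours. Between the outermost of them, the matrix held 94 other genes, of which 66 were tested. Of these, 19 rose and 9 fell in DZNep, that is 28.8% and 13.6%, beside 22.4% and 20.4% of all tested genes, and in shEZH2 7 rose and 0 fell, that is 10.6%, beside 3.91%. Of the 19, 4 were under the filter minimum in both control samples, as were 3 of the 7, and 2 of the 9 were under it in both DZNep samples. The median log2 fold changes of the neighbours were 0.31 and 0.25. The medians of the 8 were 0.51 and 0.60.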

How the data were processed

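Total RNA of 6 OVCAR8 samples, 2 each of control, DZNep and shEZH2, was sequenced after ribosomal RNA removal and stranded library preparation. Per the labels and the methods, the authors trimmed reads with fastp, aligned them with STAR to GRCh38 and quantified genes of a GENCODE annotation with RSEM; versions of STAR and RSEM are not given in the sources used here. The deposited matrix is called a count matrix, but its values are a score scaled to a common total and rounded by the authors, so read depth is unknown, no count model was used and no counting interval is given. Whether the values are per length is not stated.

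Values were scaled by unweighted TMM (factors 0.92 to 1.116; trims 30% and 5%), filtered (at least 10 in at least 2 samples) and tested on log2(value + 1) with limma 3.58.1 (trend, R 4.3.3) in 1 fit of the 3 groups, two-sided, with Benjamini-Hochberg adjustment over 9671 genes and a threshold of 0.05. Fold changes are on that log2 scale, which understates low genes. The fit was tested on simulated data. The members, the 13 other gene lists, the motifs and the ratios were chosen with earlier results of these data known. Some genes of the lists are not reported here. Named genes were all members, EZH2, up to 4 called genes per list by largest absolute log2 fold change, the 5 closest profiles and the constitutive counterparts PSMB5, PSMB6 and PSMB7. Overlap of groups was read on scaled values. Alternatives were other scalings, filters, pseudocounts, fits, a replicate block, GC and length correction, averaging of the shEZH2 pair, omission of each sample and the call rule of the methods. Ratios, promoter matches and figures were made with Python 3.11.15 and matplotlib 3.10.9.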

Additional observations from a re-analysis of the deposited data

How the results depend on the processing

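HLA-B, B2M, TAP1 and PSMB8 kept their DZNep call under all 19 alternatives that give a test, with log2 fold changes of 0.64 to 1.14, 0.89 to 1.27, 0.70 to 1.24 and 0.93 to 1.54. The DZNep call of HLA-E was lost under 6 (adjusted p 0.0766 to 0.152) and the shEZH2 call of TAPBP under 8 (0.0506 to 0.397). The call rule of the methods gave 3 members higher in DZNep and 0 in shEZH2. In shEZH2 against control, the count of 1 higher became 3 with values as deposited, 3 with only the 2 groups compared, 0 with a filter of at least 1 or no filter, 0 without the trend, 0 with the shEZH2 samples averaged, 5 after GC and length correction (chosen after seeing the data) and 0 to 4 with 1 sample left out. In DZNep against control, 4 to 6 were higher with 1 sample left out. In shEZH2 against DZNep, the count of lower members became 1 with values as deposited, 1 with only the 2 groups compared, 0 to 1 with 1 sample left out and 2 after GC and length correction, which gave 1 higher.

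The groups share replicate numbers, but no label says what a number marks. The deviations of replicate 1 correlated at 0.786 between control and DZNep, and at -0.024 and -0.038 between these and shEZH2. With the replicate block, 6 members were higher in shEZH2 against control and 1 lower in shEZH2 against DZNep, and with the block after GC and length correction 6 were higher in shEZH2 against control, 1 (HLA-C) lower in DZNep against control, and 2 higher and 3 lower in shEZH2 against DZNep.

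The sign of values near 0 turned. HLA-C in DZNep was -0.25 after GC and length correction with or without the replicate block (adjusted p = 0.033 with it, 0.135 without), -0.012 without control replicate 2 and -0.069 without DZNep replicate 1, within -0.069 to 0.18 with 1 sample left out. TAP2 in DZNep was -0.017 with median-ratio scaling, -0.068 after GC and length correction with or without the block, -0.15 without control replicate 2 and -0.16 without DZNep replicate 1 (-0.16 to 0.20 with 1 sample left out). TAP2 in shEZH2 was -0.017 with median-ratio scaling, -0.0079 after GC and length correction with or without the block, -0.16 without control replicate 2 and -0.036 without shEZH2 replicate 1 (-0.16 to 0.18 with 1 sample left out). In shEZH2 against DZNep, TAP2 was 6e-04 with median-ratio scaling, 0.061 after GC and length correction with or without the block, 0.16 without DZNep replicate 1 and 0.030 without shEZH2 replicate 2 (-0.19 to 0.16 with 1 sample left out). The cause was not tested.

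Over all genes, the 378 higher and 438 lower in shEZH2 became 812 higher with values as deposited, 775 and 761 with only the 2 groups compared, 1357 and 1651 after GC and length correction, 1398 and 1367 with the replicate block, 1788 and 2056 with both, 10 and 29 with the shEZH2 samples averaged, and 7 to 720 and 27 to 761 with 1 sample left out. The 472 higher and 427 lower in shEZH2 against DZNep ranged from 34 and 38 to 2104 and 1944, and the 2163 higher in DZNep fell to 1375 without DZNep replicate 1. Over the alternatives, 3 to 10 transcription factors and 3 to 7 interferon response genes were higher in DZNep, and 0 to 6 and 1 to 8 in shEZH2. With 2 samples a group and read depth unknown, precision is limited.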

Other observations

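The MHC on chromosome 6 also held genes outside antigen presentation with larger changes in DZNep than the class I genes; those named here were chosen after their values were seen. TNF, the inflammatory cytokine, rose by 3.07 on the log2 scale in DZNep (SE 0.30, adjusted p = 0.0002884, limma) and by 2.01 in shEZH2 (SE 0.30, adjusted p = 0.01353). IER3, an immediate early gene, rose by 2.38 (adjusted p = 0.0001993) and 1.35 (adjusted p = 0.01458). CFB, the complement factor B, fell by 2.94 in DZNep (SE 0.24, adjusted p = 0.0001486), and its log2 fold change in shEZH2 was -0.95 (adjusted p = 0.05157). HCP5, a non-coding RNA of the class I region, rose by 1.59 in DZNep (SE 0.20, adjusted p = 0.0008505), and its log2 fold change in shEZH2 was 0.53 (adjusted p = 0.1393). TNF was under the filter minimum of 10 in both control samples and CFB in both DZNep samples, so they were tested only because they were higher elsewhere.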
